A study of Mus musculus with 10 samples.

Results

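The enzymes that break down amino acids in the liver were followed at the RNA level through 41 genes, listed by symbol and all found among the 12148 genes of the count table. Whole liver came from wild-type germ-free C57BL6 mice that had been given, by mouth over several weeks, either gut microbiota-derived extracellular vesicles (MEV) in PBS (GF+MEV, n = 5) or PBS alone (GF+PBS, n = 5). MEV are nanosized membrane particles shed by gut bacteria, here purified from mice with a normal microbiota, so both groups were germ-free and only the GF+MEV mice received vesicles. Each mouse gave 1 library, the whole experiment was done once, and the age and sex of these germ-free mice are not given in the sources used here. The question was which steps of amino acid breakdown differed in liver RNA after MEV, a matter tied to glucose production because the carbon of many amino acids can be turned into glucose.

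Amino acid breakdown usually starts with removal of the amino group, which aminotransferases pass to a keto acid or dehydratases release as ammonia, and the nitrogen then goes to glutamate, glutamine and urea. The carbon skeletons enter central metabolism as pyruvate, oxaloacetate, 2-oxoglutarate, fumarate, succinyl-CoA, acetoacetate or acetyl-CoA. The liver carries most of these pathways, apart from the first step for the branched-chain amino acids, and several of the entry enzymes, such as tyrosine aminotransferase and serine dehydratase, are textbook targets of glucocorticoids, glucagon and dietary protein. Many aminotransferases and dehydratases use pyridoxal phosphate, the active form of vitamin B6, as their cofactor.

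Libraries held 15746119 to 20523649 counts on genes, and each of the 41 genes had at least 161 counts in every library, so all passed the low-count filter and were tested. Levels are given as CPM, gene counts relative to the library total after TMM scaling in edgeR, and differences as log2 fold changes of GF+MEV over GF+PBS. Differences were called at a Benjamini-Hochberg adjusted p under 0.05 over all 12147 tested genes in edgeR's quasi-likelihood test. Of 9 hepatocyte markers tested 1 was called, the transcription factor *Hnf4a* (higher, log2 fold change 0.45), and 4 were higher at an unadjusted p under 0.05. Their sums overlapped, at 95592 to 115525 CPM in GF+MEV and 99294 to 115487 CPM in GF+PBS livers, and the most abundant, *Alb*, ranged over 64586 to 80955 CPM in GF+MEV and 70779 to 83247 CPM in GF+PBS livers. Summed markers of Kupffer cells and leukocytes (8 of 9 listed genes in the table), endothelium (7 of 7), stellate cells (8 of 8), cholangiocytes (4 of 7), muscle (5 of 9) and red cells (5 of 5) overlapped between the groups, and their part in the results below was not tested. Of the markers of these other cell types *Cd79a* and *Clec4g* were lower and *Krt19* and *Lyve1* higher, with no other called, and the cholangiocyte sum was 44.6 to 96.3 CPM in GF+MEV and 41.2 to 50.2 CPM in GF+PBS livers. In whole liver, fewer cells of a type and less RNA per cell cannot be told apart. Within GF+PBS, replicates 1 and 3 were closer to each other than to the rest, with a root mean square difference of 0.53 on the log2 scale over the 300 genes most variable among GF+MEV livers, as were replicates 4 and 5 (0.50), against 0.68 to 0.85 for the other pairs of that group. Results that rest on these livers are given with and without them.

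Of the 41 genes, 7 rose in GF+MEV livers (*Tat*, *Got1*, *Sds*, *Gpt2*, *Bhmt*, *Mat1a* and *Aass*), which is 17.1%. Over all 12147 genes tested 4.12% rose and 7.64% were called in either direction, and over the 7487 genes averaging 10 CPM or more these shares were 5.38% and 8.67%. The 41 genes were chosen with earlier results of these data known, so the difference between these shares was not tested. Of 56 further enzymes of amino acid catabolism, described below, 3 rose. None of the 41 fell by edgeR's test, against 3.52% of all genes, although 2 genes (*Shmt1* and *Haao*) were lower at an unadjusted p under 0.05, and DESeq2 and limma-voom each called *Shmt1* lower. DESeq2, the tool used in the paper, called 8 of the 41 higher, the 7 above and *Ahcy*. In the 7 genes that rose, and in no other member, every GF+MEV liver lay above every GF+PBS liver, an arrangement seen in 3.94% of all genes. The reverse was seen in 3.45% of all genes, either one in 7.39%, and in none of the 41 was the reverse seen. The other 34 genes had log2 fold changes between -0.25 and 0.30, and 31 of the 34 were within 0.2 of 0. The median over the 41 was 0.03, against -0.0037 over all genes tested.

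**Figure D1:**
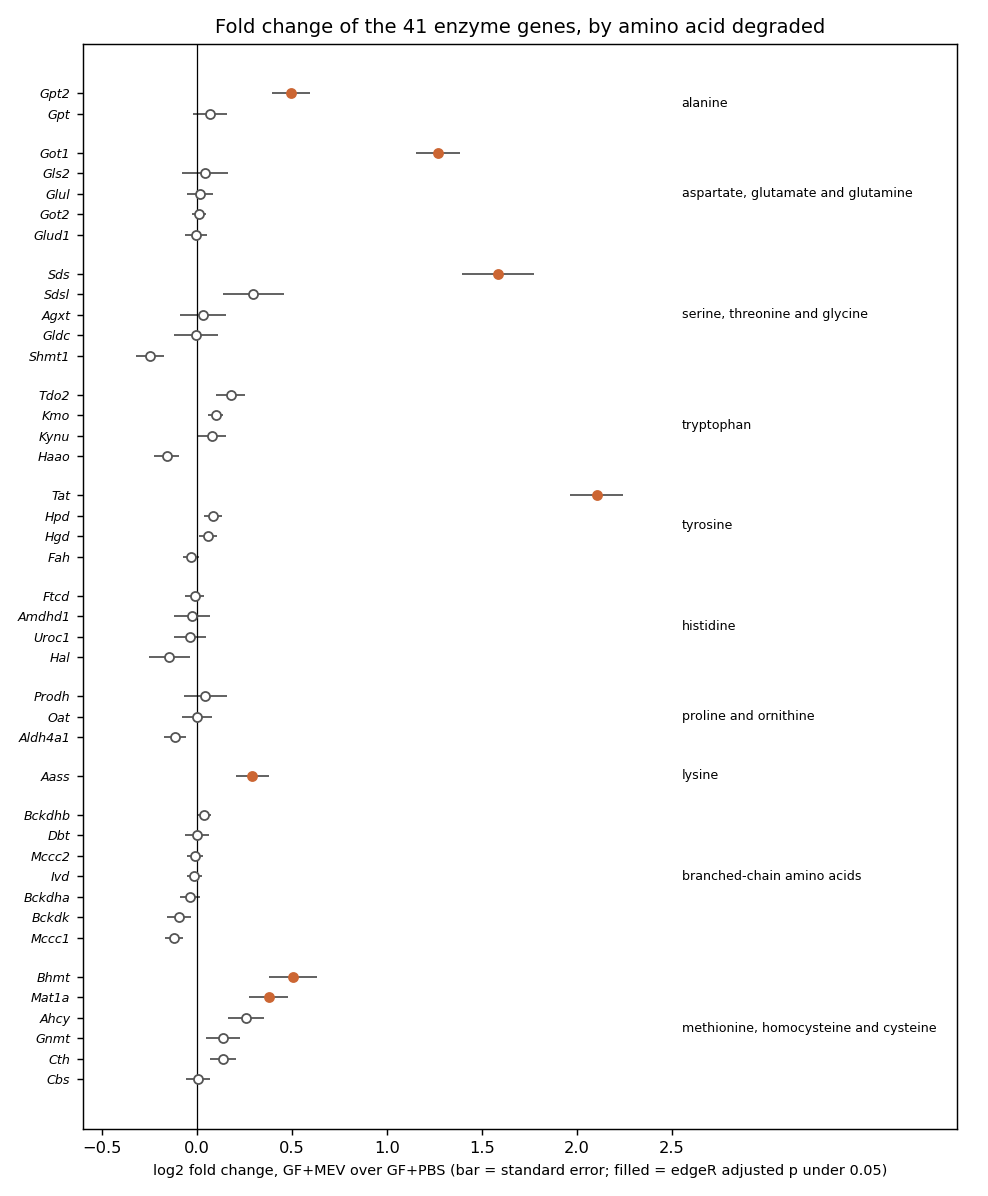
Log2 fold change of GF+MEV over GF+PBS for each of the 41 enzyme genes, grouped by the amino acid they degrade, with standard errors as bars and filled points for genes past an edgeR adjusted p of 0.05 (n = 5 livers per group). *Tat*, *Sds* and *Got1* lie beyond 1, *Bhmt*, *Gpt2*, *Mat1a* and *Aass* between 0.29 and 0.51, and the open points cluster around 0.

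The 3 largest changes were in enzymes that take off the amino group. *Tat* (ENSMUSG00000001670, chromosome 8 from 109990437 to 109999803 of GRCm38) encodes tyrosine aminotransferase, the rate-limiting enzyme of tyrosine breakdown. *Got1* (ENSMUSG00000025190, chromosome 19 from 43499752 to 43524605) encodes the cytosolic aspartate aminotransferase. The region around the start of each gene is shown because these genes had the smallest p-values of the group. The sequences are from RefSeq (GRCm38.p6), run from 250 bases before the annotated start of transcription to 50 bases after it, and read in the direction of the gene. They cover chr8:109990186-109990485 on the plus strand for *Tat* and chr19:43524556-43524855 on the minus strand for *Got1*. Capitals mark CCAAT boxes, written CCAAT or, on the other strand, ATTGG.
Tat: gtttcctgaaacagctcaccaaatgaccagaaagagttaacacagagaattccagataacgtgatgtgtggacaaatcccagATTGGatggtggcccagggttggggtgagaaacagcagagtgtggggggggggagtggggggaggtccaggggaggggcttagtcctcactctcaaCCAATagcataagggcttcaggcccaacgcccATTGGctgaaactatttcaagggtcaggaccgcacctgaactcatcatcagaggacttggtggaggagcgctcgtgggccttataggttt
Got1: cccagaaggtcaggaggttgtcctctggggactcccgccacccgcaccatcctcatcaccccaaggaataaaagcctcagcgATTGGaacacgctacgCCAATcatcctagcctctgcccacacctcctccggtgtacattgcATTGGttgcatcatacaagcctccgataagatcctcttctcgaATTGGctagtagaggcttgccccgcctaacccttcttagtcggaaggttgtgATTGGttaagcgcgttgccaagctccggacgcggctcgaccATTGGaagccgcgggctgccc
The *Tat* window held 3 such boxes and the *Got1* window 6, and 37.4% of all 32851 mouse promoter windows of the same length held at least 1, as did 22 of the 34 windows available for 33 of the 41 genes. Searched on both strands in the same way were AGAACA (core of the glucocorticoid receptor element), TGACGTCA (CREB), GTAAACA (FOXO) and TTGCNNAA (C/EBP), which occur in 19.0%, 1.79%, 3.65% and 10.8% of all windows. None of these 4 was in the *Tat* or *Got1* window, and the matches shown overlap no other motif searched. Such windows leave out distant regulatory regions, and a match or its absence says nothing about binding. The motifs were chosen after the fold changes were known.

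*Tat* was 3956, 4292, 3568, 3319 and 3124 CPM in GF+MEV replicates 1 to 5 and 728, 775, 723, 1038 and 988 CPM in GF+PBS replicates 1 to 5. The lowest GF+MEV liver was thus 3124 CPM and the highest GF+PBS liver 1038 CPM. *Tat* averaged 3652 ± 474 CPM with MEV and 850.3 ± 151 CPM with PBS (SD, n = 5 livers per group), a log2 change of 2.10 ± 0.14 (SE, edgeR adjusted p 7.6e-08) or 4.29-fold. *Tat* alone accounted for 46.8% of the difference between the groups in the summed CPM of the 41 genes. That sum was 31207 to 32340 CPM in GF+MEV livers and 24477 to 27737 CPM in GF+PBS livers, and the 34 genes that were not called summed to 19695 to 21350 CPM and 18964 to 21134 CPM, which overlap.

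The 3 other genes of the tyrosine pathway were not called. *Hpd*, which acts next on 4-hydroxyphenylpyruvate, changed by 0.09 ± 0.05 on the log2 scale (SE, edgeR adjusted p 0.45), and lay at 2218 to 2459.9 CPM in GF+MEV and 2067 to 2415 CPM in GF+PBS livers. For *Hgd*, homogentisate dioxygenase, the log2 fold change was 0.06, and for *Fah*, the final hydrolase of the pathway, it was -0.03, with ranges that overlapped in both.

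*Sds* (ENSMUSG00000029597, chromosome 5 from 120476526 to 120483932) encodes serine dehydratase, which turns serine into pyruvate and ammonia and so feeds glucose synthesis directly. It was 301, 316, 414, 284 and 276 CPM in GF+MEV replicates 1 to 5 and 83.7, 95.9, 82.4, 139 and 129.6 CPM in GF+PBS replicates 1 to 5. Each GF+MEV liver was above each GF+PBS liver, and GF+MEV replicate 3 stood above the other 4 of its group. *Sds* averaged 318 ± 55.5 CPM with MEV and 106 ± 26.3 CPM with PBS (SD, n = 5 livers per group), a log2 change of 1.58 ± 0.19 (SE, edgeR adjusted p 9.2e-06). Its exons overlap Gm15690 and *Plbd2* on the other strand by 501 bases, and reads there cannot be assigned if counting ignored strand. The neighbouring paralogue *Sdsl* averaged 8.46 RPKM (CPM per kilobase of exon) in GF+PBS livers, where *Sds* averaged 62.6 RPKM. *Sdsl* ranged over 12.7 to 18.1 CPM in GF+MEV and 9.58 to 16.3 CPM in GF+PBS livers. Its log2 change was 0.30 ± 0.16 SE (edgeR adjusted p = 0.23).

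Other genes of serine and glycine metabolism were not called. *Agxt*, which moves the amino group between alanine and glyoxylate, had a log2 fold change of 0.03, and *Gldc*, the decarboxylase of the glycine cleavage system, one of -0.01. *Shmt1*, the cytosolic enzyme that interconverts serine and glycine, was 151, 148, 146, 167 and 180.4 CPM in GF+MEV replicates 1 to 5 and 179, 212, 183, 189 and 178 CPM in GF+PBS replicates 1 to 5. The groups touched, since GF+MEV replicate 5 was above the lowest GF+PBS liver, and the log2 fold change of -0.25 (standard error 0.07) missed the threshold at an edgeR adjusted p of 0.051. This gene was past the threshold, in the same direction, in 8 of 21 alternative settings, with adjusted p from 0.018 to 0.12 over all of them. Its exons overlap those of *Smcr8* on the other strand.

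*Got1* was 663, 632, 723, 762 and 671 CPM in GF+MEV replicates 1 to 5 and 247, 279, 238, 339 and 331 CPM in GF+PBS replicates 1 to 5. The groups were well apart, with 632 CPM in the lowest GF+MEV liver and 339 CPM in the highest GF+PBS liver. *Got1* averaged 690.3 ± 51.7 CPM with MEV and 287 ± 46.7 CPM with PBS (SD, n = 5 livers per group), a log2 change of 1.27 ± 0.12 (SE, edgeR adjusted p 1.2e-06) or 2.41-fold. *Got2*, which encodes the mitochondrial form of the same aminotransferase and works with it in the malate-aspartate shuttle, was 515 to 563 CPM in GF+MEV and 508 to 577 CPM in GF+PBS livers. Its log2 fold change was 0.01 with a standard error of 0.04, among the smallest errors of the 41 genes.

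For alanine, the gene that rose was the mitochondrial one. *Gpt2* (ENSMUSG00000031700, chromosome 8 from 85492576 to 85527560), the mitochondrial alanine aminotransferase, was 557, 643, 606, 558 and 610.4 CPM in GF+MEV replicates 1 to 5 and 357, 490.3, 365, 448 and 452 CPM in GF+PBS replicates 1 to 5. *Gpt2* averaged 595 ± 37.0 CPM with MEV and 422 ± 58.6 CPM with PBS (SD, n = 5 livers per group), a log2 change of 0.49 ± 0.10 (SE, edgeR adjusted p 0.0026). *Gpt*, the cytosolic form, was 376 to 433 CPM and 348 to 474 CPM in the 2 groups, which overlapped, with a log2 fold change of 0.07 ± 0.09 (SE, edgeR adjusted p 0.69).

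Genes of glutamate and glutamine handling stayed close to 0 on the log2 fold change scale. The value was -0.01 for *Glud1*, glutamate dehydrogenase, which releases ammonia from glutamate in mitochondria. It was 0.04 for *Gls2*, the liver glutaminase found in hepatocytes near the portal vein, and 0.01 for *Glul*, glutamine synthetase, found in the hepatocytes next to the central vein. Standard errors were 0.06, 0.12 and 0.07, in that order. In *Glul*, GF+MEV replicate 3 was lower than the rest of its group.

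In the methionine and cysteine group 2 of 6 genes rose, both in the methionine cycle, and neither call held with the alike control livers summed. *Mat1a* (ENSMUSG00000037798, chromosome 14 from 41105035 to 41124412), the liver methionine adenosyltransferase that makes S-adenosylmethionine, was 3469, 3273, 3498, 3228 and 4031 CPM in GF+MEV replicates 1 to 5 and 2304, 3014, 2332, 2905 and 2914 CPM in GF+PBS replicates 1 to 5. The lowest GF+MEV liver was 3228 CPM and the highest GF+PBS liver 3014 CPM, so the groups were apart by less than their own spread. *Mat1a* averaged 3499.9 ± 319 CPM with MEV and 2694 ± 346 CPM with PBS (SD, n = 5 livers per group), a log2 change of 0.38 ± 0.10 (SE, edgeR adjusted p 0.018). With GF+PBS replicates 1 and 3 summed, and 4 and 5 summed, the log2 change was 0.36 (edgeR adjusted p 0.070), and without replicates 1 and 3 it was 0.25 (edgeR adjusted p 0.10).

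*Bhmt* (ENSMUSG00000074768, chromosome 13 from 93616675 to 93637961), which remakes methionine from homocysteine with betaine, was 1712, 2706, 1743, 2175 and 2224 CPM in GF+MEV replicates 1 to 5 and 1625, 1475, 1512, 1425 and 1402 CPM in GF+PBS replicates 1 to 5. GF+MEV replicate 1 was only just above GF+PBS replicate 1, while GF+MEV replicate 2 was the highest by far. *Bhmt* averaged 2112 ± 408 CPM with MEV and 1488 ± 87.9 CPM with PBS (SD, n = 5 livers per group), a log2 change of 0.51 ± 0.13 (SE, edgeR adjusted p 0.0098), and its exons overlap Gm15622 on the other strand by 187 bases. With the alike control livers summed its log2 change was 0.52 (edgeR adjusted p 0.051), and without GF+PBS replicates 4 and 5 it was 0.46 (edgeR adjusted p 0.070). Between these enzymes in the cycle, *Ahcy*, which splits S-adenosylhomocysteine, was 2558, 2441, 2746, 2417 and 2521 CPM in GF+MEV replicates 1 to 5 and 1821, 2131, 1853, 2503 and 2289.8 CPM in GF+PBS replicates 1 to 5. Only GF+PBS replicate 4 reached into the GF+MEV range, and the log2 fold change of 0.26 (standard error 0.09) was not past the threshold (edgeR adjusted p = 0.083). Without GF+PBS replicate 4 it was 0.33 (edgeR adjusted p = 0.027). Without GF+PBS replicates 1 and 3 it was 0.14 (edgeR adjusted p = 0.39), and with the alike control livers summed 0.27 (edgeR adjusted p = 0.13). By DESeq2 it was 0.26 (Wald test adjusted p = 0.039), and without GF+PBS replicates 4 and 5 it was 0.39 (edgeR adjusted p = 0.012). *Ahcy* was called in 3 of 21 alternative settings and not in the other 18.

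*Gnmt*, glycine N-methyltransferase, the most abundant of the 41 genes per kilobase of exon in GF+PBS livers, gave 0.14 on the log2 scale (edgeR adjusted p = 0.36). The transsulfuration genes, which carry homocysteine on to cysteine, gave 0.00 for *Cbs* and 0.14 for *Cth*, neither past the threshold. 

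*Aass* (ENSMUSG00000029695, chromosome 6 from 23072173 to 23132986), the mitochondrial enzyme of the first steps of lysine breakdown, was 331, 334, 347, 384 and 335 CPM in GF+MEV replicates 1 to 5 and 239, 285, 261, 310.3 and 318 CPM in GF+PBS replicates 1 to 5. The gap between the lowest GF+MEV and the highest GF+PBS liver was narrow, 331 against 318 CPM. *Aass* averaged 346 ± 22.0 CPM with MEV and 283 ± 33.1 CPM with PBS (SD, n = 5 livers per group), a log2 change of 0.29 ± 0.09 (SE, edgeR adjusted p 0.034). The test was passed in 12 of 21 alternative settings, and the log2 change was 0.24 to 0.34 when single livers were left out. Without GF+MEV replicates 3 or 4, or without GF+PBS replicates 1, 2 or 3, the adjusted p lay between 0.053 and 0.092.

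**Figure D2:**
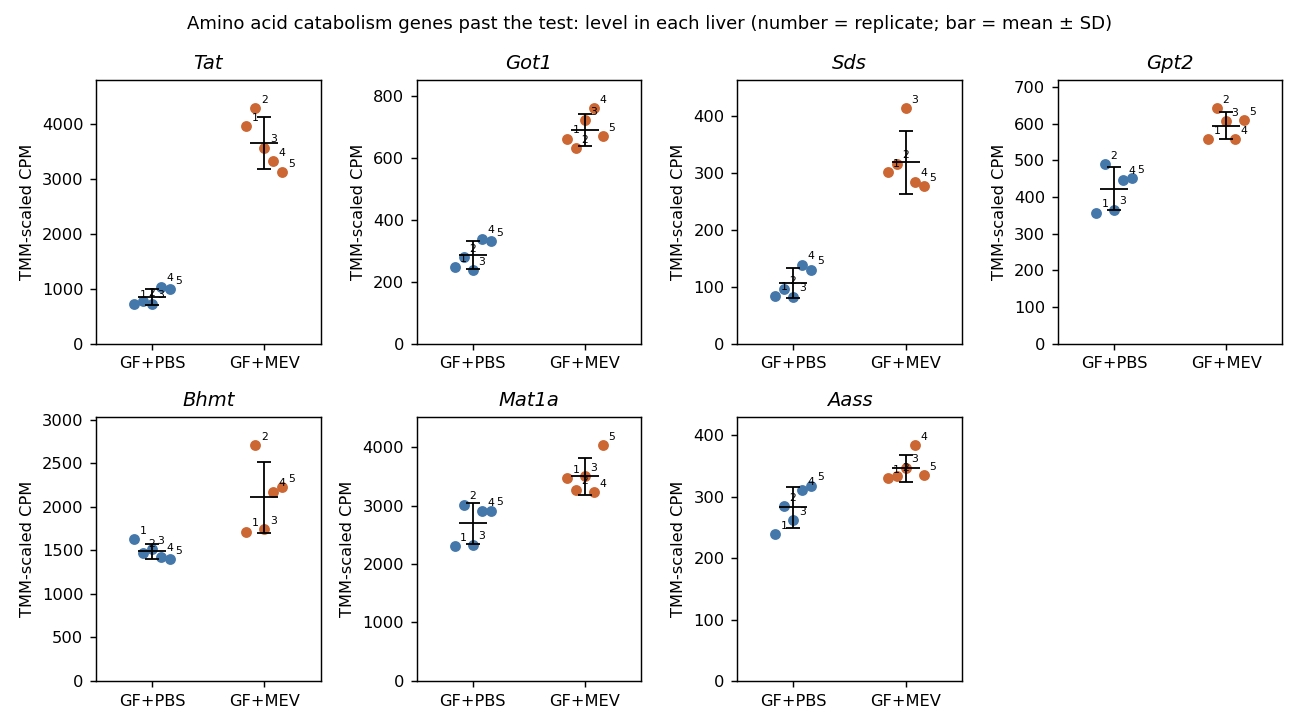
CPM (TMM-scaled, linear axis from 0) of the 7 genes that rose, 1 point per liver with its replicate number, and the mean ± SD of each group (n = 5). *Tat*, *Got1* and *Sds* show wide gaps between the groups, while the lowest GF+MEV livers of *Bhmt* and *Aass* lie just above the highest GF+PBS liver.

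None of the members from the tryptophan, histidine, proline or branched-chain pathways passed edgeR's test. In the tryptophan pathway, *Tdo2*, the dioxygenase that opens the ring and limits the rate, had a log2 fold change of 0.18 ± 0.08 (SE, edgeR adjusted p 0.17). *Kmo* was at 0.10, *Kynu* at 0.08 and *Haao*, which acts last of these on the way to NAD, at -0.16 (edgeR adjusted p = 0.18). These are log2 fold changes, and all 4 genes overlapped between the groups.

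The 4 histidine genes, which take histidine through urocanate to glutamate, lay between -0.15 and -0.01 in log2 fold change. *Hal*, histidine ammonia-lyase, was lowest of these, at 351 to 513 CPM in GF+MEV and 455 to 542 CPM in GF+PBS livers (edgeR adjusted p = 0.41). *Uroc1*, *Amdhd1* and *Ftcd*, the following steps in that order, were at -0.04, -0.02 and -0.01. Of the proline and ornithine genes, *Oat*, ornithine aminotransferase, gave a log2 fold change of 0.00, *Prodh*, proline dehydrogenase, 0.04 and *Aldh4a1*, which makes glutamate from the product of both, -0.11.

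The 7 branched-chain genes had log2 fold changes from -0.12 to 0.04 and standard errors of 0.04 to 0.06. They include the subunits of the branched-chain keto acid dehydrogenase, *Bckdha* (-0.03), *Bckdhb* (0.04) and *Dbt* (-0.00). *Bckdk*, the kinase that inhibits this complex, gave -0.10. Of the 1899 exon bases of *Bckdha*, 1171 overlap *B3gnt8* on the other strand, and reads there cannot be assigned if counting ignored strand. For leucine, *Ivd* gave -0.01 and the carboxylase subunits *Mccc1* and *Mccc2* gave -0.12 and -0.01. The smallest edgeR adjusted p in the group was 0.28. For these and the other genes with no call, a p that missed the threshold does not show that the groups were equal.

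Enzymes of one reaction or of successive steps were set against each other within each liver, as the log2 ratio of their CPM, which library scaling cannot alter beyond the small added prior count. For 8 pairs, group means were compared in an exact permutation test (two-sided), for which 5 livers against 5 give 252 labelings and a smallest p of 0.00794. The pairs were chosen with earlier results of these data known. Every pair that passed set a gene called by edgeR against an uncalled gene, and no pair of uncalled genes passed. The ratios thus describe the size of unequal changes and give no separate evidence beyond the edgeR calls. The log2 ratio of *Got1* to *Got2* was 0.21 to 0.51 in GF+MEV and -1.10 to -0.69 in GF+PBS livers, a difference of 1.27 ± 0.10 SE with an exact permutation p = 0.00794, 0.0212 adjusted over 8 pairs. The ranges were apart by more than the spread of either group.

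The log2 ratio of *Tat* to *Hpd* was 0.47 to 0.86 in GF+MEV and -1.56 to -1.14 in GF+PBS livers, a difference of 2.02 ± 0.11 SE (exact permutation p = 0.00794, 0.0212 adjusted over 8 pairs). For *Sds* over *Sdsl*, the log2 ratio was 4.15 to 4.51 in GF+MEV and 2.67 to 3.24 in GF+PBS, a difference of 1.29 ± 0.12 SE (exact permutation p = 0.00794, 0.0212 adjusted over 8 pairs). *Gpt* over *Gpt2* was lower in GF+MEV livers, with a log2 difference of -0.43 ± 0.10 SE (exact permutation p = 0.0159, 0.0317 adjusted over 8 pairs), and here the groups overlapped, since GF+PBS replicate 2 was within the GF+MEV range. This last call was lost without 8 of the 10 livers taken singly, with an adjusted p of 0.0635 in each. Leaving out a liver leaves fewer labelings and so a larger smallest p. The difference itself stayed between -0.51 and -0.38 over the 10 settings.

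The remaining 4 pairs did not pass. The differences in log2 ratio were 0.02 ± 0.17 SE for *Gls2* over *Glul*, 0.08 ± 0.05 SE for *Tdo2* over *Kmo*, -0.06 ± 0.08 SE for *Bckdk* over *Bckdha* and -0.14 ± 0.08 SE for *Cbs* over *Cth*. Their exact permutation p-values, adjusted over 8 pairs, lay between 0.191 and 0.881.

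**Figure D3:**
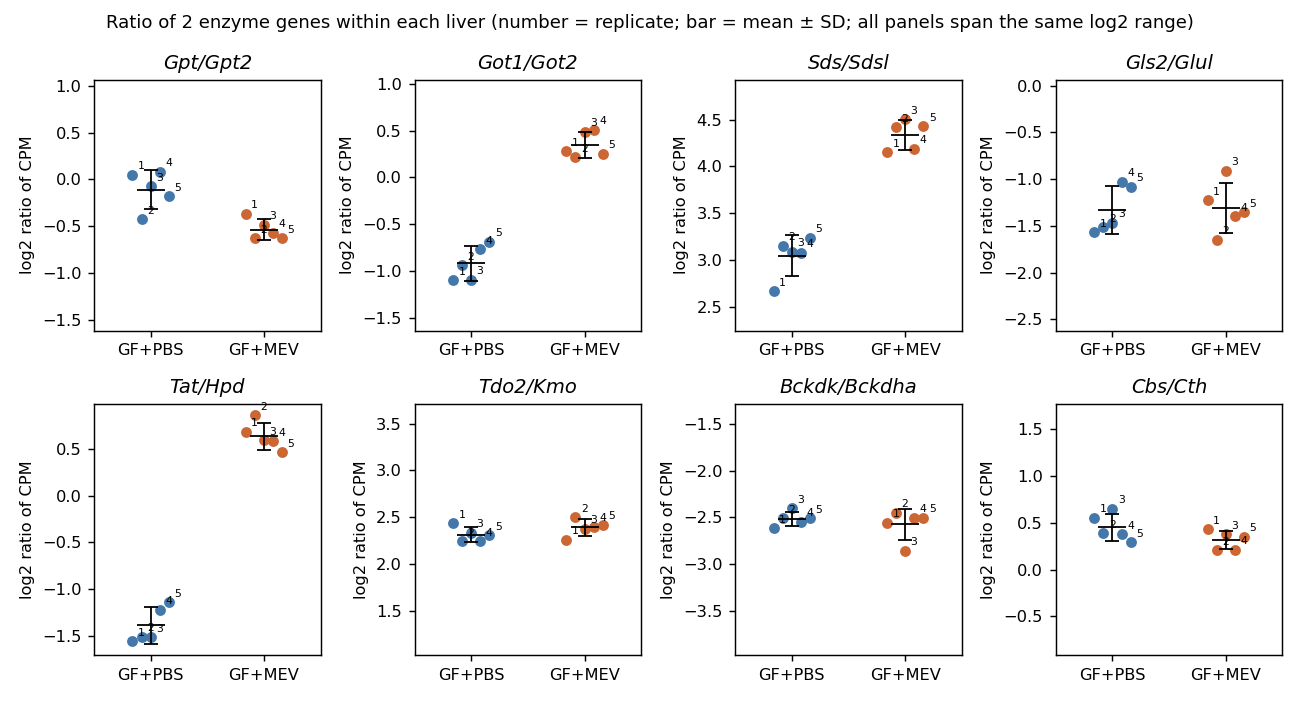
Log2 ratio of CPM between 2 enzyme genes within each liver for 8 pairs, 1 point per liver with its replicate number and the mean ± SD of each group (n = 5), all panels spanning the same log2 range. *Got1*/*Got2*, *Tat*/*Hpd* and *Sds*/*Sdsl* lie higher in all GF+MEV livers, *Gpt*/*Gpt2* is lower with overlap, and the other 4 overlap.

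Levels of different genes were compared as RPKM, the CPM divided by the summed length of a gene's annotated exons in kilobases. In GF+PBS livers the means ran from 3.90 RPKM for *Mccc1* to 1730.2 RPKM for *Gnmt*, with *Hpd*, *Mat1a*, *Ahcy* and *Oat* next below *Gnmt*. This order depends on the annotated exon length, which is 10952 bases for *Mccc1* and 2802 for *Mccc2*, with GF+PBS means of 42.7 and 84.1 CPM. By CPM the highest GF+PBS mean was that of *Mat1a* (2694, with *Gnmt* at 2087) and the lowest that of *Sdsl* (12.7). By RPKM, *Tat* was between rank 6 and rank 8 of the 41 in each GF+PBS liver and at rank 1 or 2 in each GF+MEV liver, with means of 354 and 1518 RPKM. *Sds* went from ranks 24 to 30 in GF+PBS to ranks 14 to 16 in GF+MEV, and *Got1* from ranks 19 to 22 to ranks 10 to 13. The branched-chain genes were among the least abundant, between 3.90 and 53.6 RPKM in GF+PBS livers.

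**Figure D4:**
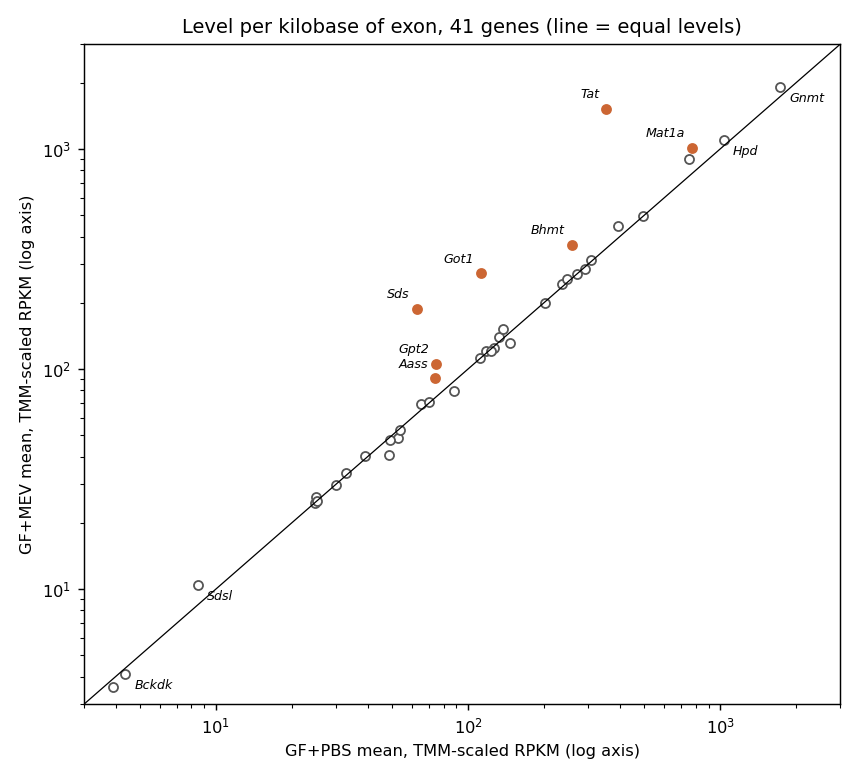
Mean RPKM of the 41 genes in GF+PBS (x) and GF+MEV (y) livers, both on log axes, n = 5 livers per group, with filled points for genes past the edgeR test and a line of equal levels. *Tat*, *Sds* and *Got1* lie well above the line, and most other genes lie near it from 3.90 to 1730.2 RPKM.

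Of the 14 enzymes that use pyridoxal phosphate 4 rose (*Tat*, *Got1*, *Sds* and *Gpt2*). Of the 27 others 3 rose (*Mat1a*, *Bhmt* and *Aass*), beside 4.12% of all genes tested. Median log2 fold changes were 0.07 and -0.00. Of the enzymes placed in the cytosol 5 of 23 rose, and of those placed in mitochondria 2 of 17 (*Gpt2* and *Aass*). The difference between such classes was not tested.

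A further 61 enzymes of amino acid catabolism outside the 41 were listed, and 56 were in the table. Of these 3 rose and 53 were not called, with a median log2 fold change of -0.03, beside 4.12% of all genes that rose. Among those that rose were *Acmsd*, which diverts a tryptophan intermediate from NAD synthesis (0.41, edgeR adjusted p = 0.021), and *Aadat*, an aminotransferase for 2-aminoadipate and kynurenine in the lysine and tryptophan pathways (0.33, edgeR adjusted p = 0.024). Both of these overlapped between the groups. None fell by edgeR's test, with 7 lower at an unadjusted p under 0.05, and DESeq2 and limma-voom each called 1 lower, *Sqor*. Without TMM scaling none was called higher and 4 lower.

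Hepatocytes differ along the lobule, and amino acid breakdown is largely a task of those near the portal vein. Of 15 other genes typical of that region, 8 rose and none fell, 4 of them urea cycle genes (*Cps1*, *Ass1*, *Asl* and *Arg1*) and others *Pck1* and *G6pc*, and their summed level was 18715 to 20852 CPM in GF+MEV and 10293 to 13823 CPM in GF+PBS livers. Of 15 tested genes typical of the hepatocytes near the central vein, 1 rose and 6 fell. Their sums were 13733 to 16027 CPM in GF+MEV and 15965 to 16668 CPM in GF+PBS livers. Over all genes tested 4.12% rose and 3.52% fell. Both lists were chosen with earlier results of these data known, and the paper had already reported *Pck1* and *G6pc* as upregulated. *Hal* and *Gls2*, members also typical of hepatocytes near the portal vein, and *Glul*, next to the central vein, were not called. They are examples only, and none is among the 7 members that rose, so a gene typical of either zone among those 7 would be missed. They do not show whether the members followed the zones. The 7 members that rose, among them *Sds* (log2 fold change 1.58, edgeR adjusted p 9.2e-06), were not sorted by zone here. The part of zone in the changes of the 7 was not tested.

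Among the control livers, replicates 4 and 5 had the 2 highest GF+PBS values in 15 of the 41 genes (36.6%), against 11.4% of all genes tested, and *Tat*, *Got1*, *Sds* and *Aass* were among the 15. Without GF+PBS replicates 4 and 5, the log2 fold change was 2.30 for *Tat*, 1.44 for *Got1* and 1.86 for *Sds*. Without replicates 1 and 3 it was 1.97, 1.13 and 1.39 in the same order, and all were past the threshold. With replicates 1 and 3 summed to 1 sample and 4 and 5 summed to 1 sample, 4 of the 41 genes were called higher (*Tat*, *Got1*, *Sds* and *Gpt2*), while *Bhmt*, *Mat1a* and *Aass* missed the threshold with log2 changes of 0.52, 0.36 and 0.30, beside 0.51, 0.38 and 0.29 with all livers kept separate. *Mat1a* and *Aass* were also not called without replicates 1 and 3, without replicate 3 alone or without TMM scaling, and *Bhmt* was not called without replicates 4 and 5. Without GF+MEV replicate 2, whose TMM factor of 0.890 was the lowest (others 0.978 to 1.04), the same 7 genes were called.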

How the data were processed

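Liver RNA of 10 germ-free mice (5 GF+MEV, 5 GF+PBS, 1 library each) was analysed. Reads had been mapped to GRCm38 (STAR 2.7.3a) and assigned to genes (HTSeq) by the authors, who dropped genes with few reads. The deposited values are whole-number counts under Ensembl identifiers, not normalized. Only 44 of the 12148 deposited genes had under 100 counts summed over these libraries. A further 5 columns match no described sample and were not used. The low-count filter may have depended on them, so shares of all genes refer to the genes in this table. Libraries were made with a NEBNext Ultra RNA kit, whether counting used strand is not given in the sources used here, and 8 of the 41 genes have exons overlapping a gene on the other strand.

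Symbols, positions and exon lengths came from GENCODE M21 (GRCm38), in which 10 identifiers had no symbol. Genes reaching 20 counts over all libraries together entered edgeR 4.0.16 (R 4.3.3), with TMM factors and the group as the only term. Standard errors were computed on log2 CPM (prior count 2). Ratios were compared by exact permutation tests (scipy 1.17.1). The edgeR, DESeq2 and limma-voom fits in their default form and the exact permutation test were tried on simulated data.

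The 41 genes, the lists and the pairs were chosen with earlier results of these data known. The naming rule was that every gene past the threshold is given with its value in each liver and the rest by amino acid, that called genes of the second list are named (1 is not reported here), and that start regions are shown for the 3 called genes with the smallest p. *Sds*, *Gpt*, *Gls2*, *Kynu*, *Dbt*, *Mat1a*, *Cth* and *Sdsl* had no entry among the RefSeq start regions used. Alternatives were DESeq2 1.42.0, limma-voom 3.58.1, other scalings and filters, a replicate block, and livers left out or summed. To check for a library deposited more than once, counts of each pair in a group were compared over all genes, and the chi-square per gene was at least 6.28, where copies would give about 1 or less. Nothing in the labels says whether mice shared a cage. The p-values set a group difference against the spread between these livers and treat each liver as independent. They could be too small if livers of a group shared a cage or a collection time.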

Additional observations from a re-analysis of the deposited data

Results flagged for a closer look

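In 4 of 98 groups of 5 values, 1 liver was far from the others by Dixon's test at the 95% level, where chance alone gives about 4.9. *Sds* was 414 CPM in GF+MEV replicate 3 and 276 to 316 CPM in the other GF+MEV livers. *Glul* was 907 CPM in GF+MEV replicate 3 against 1046 to 1090 CPM. The log2 ratio of *Bckdk* to *Bckdha* was -2.86 in GF+MEV replicate 3 and -2.56 to -2.45 in the rest of its group. The log2 ratio of *Sds* to *Sdsl* was 2.67 in GF+PBS replicate 1 against 3.08 to 3.24. In 3 of the 4 the liver was GF+MEV replicate 3.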

How the results depend on the processing

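Each of the 41 genes was fitted under 21 alternatives. *Tat* (log2 fold change 1.97 to 2.30), *Sds* (1.39 to 1.86), *Got1* (1.13 to 1.44) and *Gpt2* (0.36 to 0.56) were past the threshold in all 21, *Bhmt* in 19, *Mat1a* in 17 and *Aass* in 12, and no called gene changed direction. *Ahcy* passed in 3 and *Shmt1* in 8. With GF+PBS replicates 1 and 3 summed, and 4 and 5 summed, 4 members were called higher, 1 of the other catabolism enzymes was, and 561 genes in all were called against 928. That setting has 3 control samples. The number of members called lower was 1 in place of 0 (*Shmt1*) by DESeq2, limma-voom, RLE size factors, upper-quartile scaling, no TMM, and a filter of at least 10 counts in every library. Of the other enzymes, 1 was called lower by DESeq2, limma-voom and without GF+PBS replicates 1 and 3, 2 with upper-quartile scaling and 4 without TMM. Of these enzymes 0 were called higher without TMM, 1 without GF+PBS replicates 1 and 3 and 1 without replicates 4 and 5. The cause was not tested. Leaving out each liver in turn gave 5 to 8 members called higher (5 without GF+PBS replicate 3, where *Aass* and *Mat1a* were lost) and 0 to 1 lower, 2 to 3 and 0 to 1 of the other enzymes, and 696 to 926 genes in all. It gave differences in log2 ratio of -0.51 to -0.38 for *Gpt*/*Gpt2*. Upper-quartile scaling turned the share of called genes that were higher from 53.9% to 41.2%, and no TMM to 32.5%, and leaving out GF+PBS replicates 4 and 5 to 64.3%, with the scalings shifting the median log2 fold change of all genes from -0.00 to -0.05 and -0.08.

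The replicate numbers of the labels did not pair the livers (correlations of same-numbered livers -0.12 to 0.18, and 2 of 5 correlated best with their own number). With the replicate block, 7 members were called higher, 2 of the other enzymes and 792 genes in all. For the ratios, the block is an exact sign-flip test of 5 pairs, which cannot pass after adjustment. It left differences of 1.27 for *Got1*/*Got2*, 1.29 for *Sds*/*Sdsl*, 2.02 for *Tat*/*Hpd* and -0.43 for *Gpt*/*Gpt2* (adjusted p = 0.125 each). With the alike control livers averaged to 3 values, which cannot pass either for these pairs, the differences were 1.27, 1.28, 2.04 and -0.37 (exact permutation p adjusted 0.0952, 0.0952, 0.0952 and 0.143). The lowest count of any of the 41 genes in a library was 161.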
